A study of Mus musculus with 28 samples.

Results

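The regions described here carried lysine 120 acetylation of histone H2B (H2BK120ac) in the samples coded ED and ET and had little of it in the samples coded TD and TT. They were chosen on the deposited coverage, given as CPM, with a missing value taken as 0: a region had at least 2.5 in both ED and ET and less than 1 in both TD and TT. The choice gave 354 of 127646 regions, or 0.277%, called ED/ET-high regions below. All samples were mouse embryonic stem cells (mESCs) of the genotype FOXD3-iKO, an inducible knockout of the forkhead transcription factor FOXD3, grown in L2i medium, with a treatment time of 24 h. The study depleted FOXD3 with tamoxifen (4HT) and set those cells against cells given the solvent. H2BK120ac was profiled in 3 samples each of TT, TD, ET and ED. These codes are not spelled out in the sources used here, so it is not known which letter, if either, marks FOXD3 depletion. Acetylation of lysine 27 of histone H3 (H3K27ac) was profiled in 2 4HT and 2 EtOH samples of asynchronous cells. The series also has 12 samples sorted into phases by DNA content, which are not used here. No age, sex or clone of the cell line is given in the sources used here, and the controls carry the same inducible allele.

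Acetyl groups on histone tails are added by acetyltransferases and removed by deacetylases, and they mark chromatin from which genes are being or can be transcribed. H3K27ac is found at active promoters and at active enhancers, the regulatory sequences that act on promoters over a distance. H2BK120ac is also found at active promoters and enhancers, on the residue that is otherwise ubiquitinated during transcription. In mESCs, enhancers of pluripotency genes such as Klf2 and Prdm14 are among the best studied of these elements. CUT&Tag maps a mark by letting its antibody bring a transposase to the chromatin, so that the fragments released come from marked sites.

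The deposited tables held 1 merged column per group, so no spread between replicates could be computed, no test was run, and no p-value is given. Differences are described by their size and by counts, set beside the same counts over all regions. In each column the value that occurred most often was taken for 1 fragment, which implied 2.41 M fragments in TT, 2.43 M in TD, 2.25 M in ET and 2.25 M in ED, and 4.82 M in 4HT and 6.08 M in EtOH for H3K27ac. No H3K27ac value lay below the commonest, but H2BK120ac values reached down to 0.25 of it, and 13.7% to 16.1% of the covered regions of a column lay below it. The unit behind the H2BK120ac values is therefore not settled, the depths given for TT, TD, ET and ED hold only if the commonest value is 1 fragment, and no fragment numbers or intervals are given for H2BK120ac. Intervals on H3K27ac ratios are 95% Clopper-Pearson intervals on values divided by the commonest value and rounded to whole numbers. The values appear to be mean coverage and not fragment counts, so these intervals are approximate. They cover counting error only. The samples are bulk, so less mark per cell and fewer cells with the mark cannot be told apart. Foxd3 itself held 2 regions, without H3K27ac coverage in 4HT and with 0.224 and 0.165 in EtOH, too few fragments to check the depletion. The labelled cell type was checked on H3K27ac at the strongest region within 50 kb of marker genes. In EtOH cells 9 of 9 embryonic stem cell markers had 1.57 to 14.9, while 4 primitive endoderm markers had 0.198 to 0.506, 4 trophectoderm markers 0.281 to 2.08 and 4 fibroblast markers 0.165 to 0.462. In 4HT cells the stem cell markers had 2.11 to 16.7, primitive endoderm 0.364 to 0.561, trophectoderm 0.337 to 4.17 and fibroblast 0.217 to 0.780.

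Almost all ED/ET-high regions lay away from promoters, so sequence is shown for the only 2 that overlapped one of the RefSeq promoter windows on GRCm38.p6, to show what kind of promoter they are. The bases given are the 250 before the start of the gene, 5′ to 3′ on the gene's strand, as far as they lie inside the region. The promoter of 2310009B15Rik, a protein-coding gene, is on the minus strand at chr1:138856855-138857096, and capitals mark its CpG dinucleotides. The promoter of the long noncoding RNA gene C330004P14Rik is on the plus strand at chr10:15791527-15791776, and capitals mark the reverse complement of AAGGTCA, a site bound by the nuclear receptor ESRRB.
2310009B15Rik: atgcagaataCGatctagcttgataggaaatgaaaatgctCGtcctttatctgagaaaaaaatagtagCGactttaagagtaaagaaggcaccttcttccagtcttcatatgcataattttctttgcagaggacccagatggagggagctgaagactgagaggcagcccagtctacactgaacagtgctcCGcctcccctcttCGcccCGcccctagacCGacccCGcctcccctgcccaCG
C330004P14Rik: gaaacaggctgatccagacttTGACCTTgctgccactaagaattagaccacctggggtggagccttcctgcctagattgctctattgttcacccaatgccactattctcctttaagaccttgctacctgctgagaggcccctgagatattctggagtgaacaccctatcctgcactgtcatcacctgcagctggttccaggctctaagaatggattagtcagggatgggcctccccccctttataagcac
The 2310009B15Rik stretch held 9 CpG in 242 bases and was 50.4% G or C. The C330004P14Rik stretch held 0 CpG in 250 bases and was 51.2% G or C. Over 32851 RefSeq promoter windows of 250 bases the median was 6 CpG, with quartiles of 2 and 16. The motifs searched, on both strands and with no overlap between them, were the forkhead motif TGTTTAC, the octamer ATGCAAAT and AAGGTCA. They are held by 3.17%, 1.60% and 4.08% of those windows. The only match in the printed stretches was the single ESRRB site in C330004P14Rik. The region over C330004P14Rik, chr10:15791399-15792239, had H2BK120ac of 0.483 in TT, 0.610 in TD, 3.13 in ET and 2.93 in ED, and H3K27ac of 1.80 in 4HT and 2.25 in EtOH. The region over 2310009B15Rik, chr1:138856709-138857096, had 0.911 in TT, 0.751 in TD, 2.76 in ET and 3.34 in ED, and H3K27ac of 2.63 in 4HT and 2.82 in EtOH. The 2 stretches thus differ in CpG, while both regions had H3K27ac between 1.80 and 2.82.

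The H2BK120ac values of the 354 regions are a description, since they chose the regions. TT had a lowest value of 0, a median of 0.474 and a highest of 0.999, and TD had 0, 0.526 and 0.992. ET had 2.5, 3.68 and 12.2, and ED had 2.5, 3.42 and 9.47. The groups do not overlap because the limits keep them apart. TT had no coverage in 44 regions and TD in 33, and both lacked it in 5. The median ratio of TT to ET was 0.132 (quartiles 0.0853 and 0.177), and that of TD to ED was 0.141 (0.0975 and 0.199). Every member was at least 2-fold lower in TT than in ET and in TD than in ED, as the choice requires. Among regions with coverage, TT was at least 2-fold lower than ET in 29.9% and TD than ED in 29.4%.

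Both ET and ED had to reach the same limit, so that their values relative to each other are given as a description. The ratio of ET to ED had a median of 1.06 (quartiles 0.886 and 1.32) and ran from 0.437 to 4.00. ET was above ED in 206 regions, at least 2-fold above in 6 and at most 0.5 of it in 4. Over all regions with coverage, ET was at least 2-fold above ED on the log2(value + 0.4) scale in 19.2% and at least 2-fold below in 18.5%, and nothing is read from the difference, since the limits act on both columns. Across the 354 regions, which share their libraries and the limits, Spearman's rho was 0.43 between ET and ED and 0.25 between EtOH H3K27ac and ED.

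Many members stood close to a limit. Of the 354, 128 (36.2%) lay within 10% of at least 1 limit, and 26 had 5 or more in both ED and ET. Just inside was the region near Sh2d4a, which encodes an SH2 domain protein, with 0.249 in TT, 0.444 in TD, 4.92 in ET and 2.5 in ED. The other two just inside were near Sh2d4b, with 0.999 in TT, and near Synpr, the gene of the synaptic vesicle protein synaptoporin, with 2.5 in ET. Just outside was a region near Fbxl4, the gene of an F-box protein, with 0.651 in TT, none in TD, 6.47 in ET and 2.49 in ED. The other two just outside were near Immp2l, with 1.002 in TD, and near Otol1, with 2.49 in ED. The set is therefore the end of a continuous range.

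**Figure D1:**
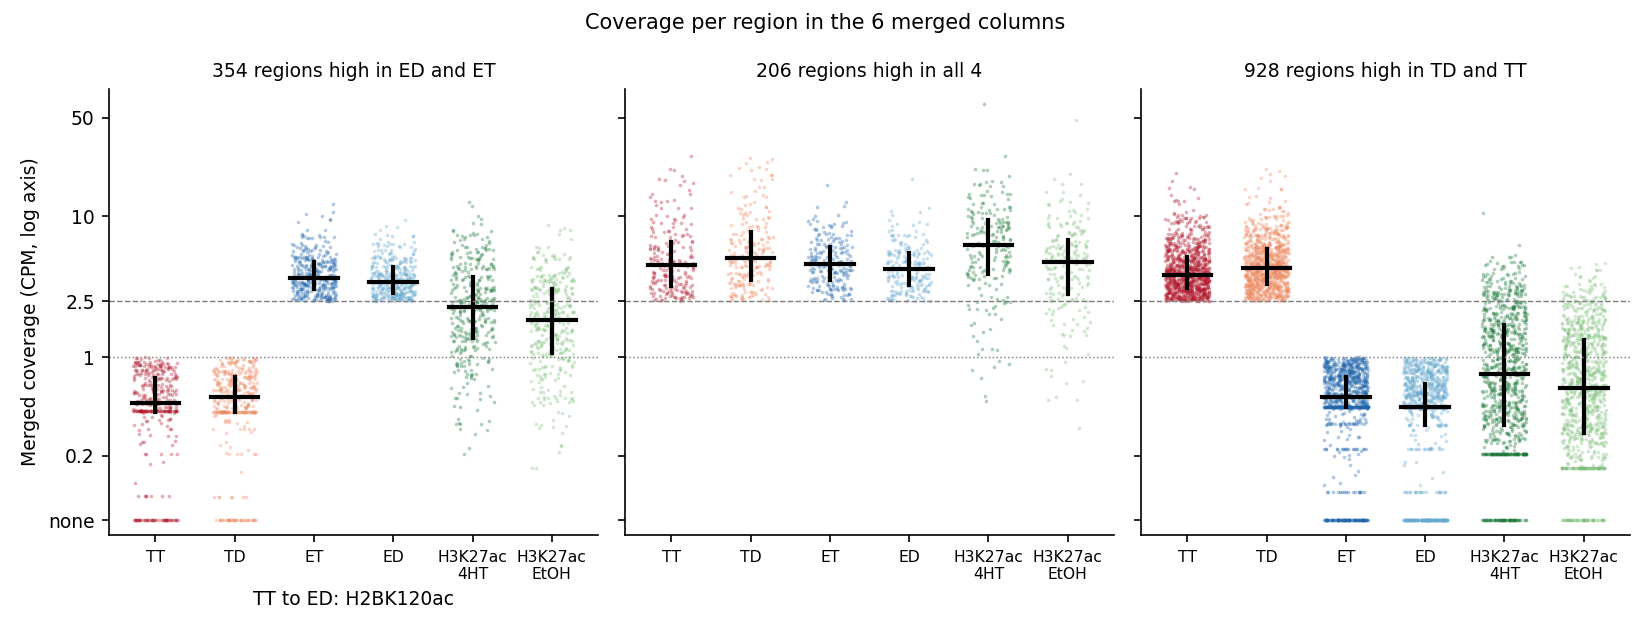
Merged coverage (CPM, log axis) per region in H2BK120ac columns TT, TD, ET and ED and in H3K27ac of 4HT and EtOH cells, for 3 sets of regions. Each point is a region, the horizontal bar is the median, the vertical bar joins the quartiles, points at "none" had no coverage, and the dotted and dashed lines are the limits of 1 and 2.5. In the 354 regions high in ED and ET the H3K27ac medians are 2.28 in 4HT and 1.84 in EtOH, between those of the 206 regions high in all 4 columns (6.25 and 4.77) and of the 928 regions high in TD and TT (0.767 and 0.610).

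The comparison sets were the 928 regions with the opposite pattern (at least 2.5 in TD and TT, less than 1 in ED and ET), called TD/TT-high, and the 206 regions with at least 2.5 in all 4 columns. Of the 1184 regions with at least 2.5 in both ED and ET, 29.9% were ED/ET-high, 17.4% were high in all 4, and 624 (52.7%) lay between. Of the 2264 regions with at least 2.5 in both TD and TT, 41.0% were TD/TT-high.

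The 10 ED/ET-high regions with the highest mean of ED and ET lay 6.25 to 752 kb from the nearest deposited window around a transcription start site (TSS). The strongest, chr12:6595575-6595872, was nearest to Klhl29, a gene of the Kelch-like family, at 1220 kb from its start. It had 0.718 in TT, 0.660 in TD, 9.11 in ET and 8.53 in ED, and H3K27ac of 5.95 in 4HT and 3.81 in EtOH. Its values in ET and ED were close to each other. The region near Tecrl, an enoyl-CoA reductase-like gene, at chr5:83537555-83537805, had 0.726 in TT, 0.412 in TD, 12.2 in ET and 4.95 in ED. Its ratio of ET to ED was 2.47. Another 6 were near Lsm8 (an RNA-binding protein of the U6 snRNP), Pi15 (a peptidase inhibitor), Manea (a Golgi mannosidase), Slc38a11 (a solute carrier), Gbe1 (the glycogen branching enzyme) and inside Hs3st5 (a heparan sulfate sulfotransferase). Those near Lsm8, Pi15, Manea, Slc38a11 and Gbe1 were 1007, 168, 786, 73.1 and 1121 kb from the start of the gene named. All 10 carried H3K27ac, from 2.52 to 7.09 in 4HT and from 2.02 to 5.11 in EtOH.

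H3K27ac took no part in the choice, and it was present at every ED/ET-high region. The lowest value, the median and the highest were 0.207, 2.28 and 12.6 in 4HT, and 0.165, 1.84 and 8.62 in EtOH. None of the 354 lacked H3K27ac coverage, while 31.8% of all regions did in 4HT and 23.1% in EtOH. The members' medians stood above 96.0% of all regions in 4HT and above 96.2% in EtOH, where the medians of all regions were 0.207 and 0.194. In EtOH 275 members (77.7%) had at least 1, against 33.4% of TD/TT-high regions, 95.1% of those high in all 4 and 8.99% of all regions. A mean H3K27ac of at least 5 fragments, or 0.93, is called well covered below. It was reached by 297 members (83.9%), by 41.5% of TD/TT-high regions, by 95.6% of regions high in all 4 and by 10.8% of all regions. The median width of the ED/ET-high regions was 420 bp, against 252 bp over all regions. It was 443 bp over well-covered regions and 395.5 bp over those high in all 4. Among the ED/ET-high regions width tracked EtOH H3K27ac with a rho of 0.24. The share of distal regions that were ED/ET-high went with H3K27ac: it was 0.0135% at a mean H3K27ac under 0.5, 0.557% at 0.5 to 1, 1.97% at 1 to 2, 4.10% at 2 to 4, 5.60% at 4 to 8 and 2.70% at 8 or more. In the last of these classes 50 of the 185 distal regions were high in all 4 columns.

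The ED/ET-high regions with the most H3K27ac in EtOH cells lay near genes of several kinds. The region 16.4 kb from the start of Klf2, a zinc finger factor of naive pluripotency, at chr8:72335431-72335542, had 11.9 in 4HT and 8.62 in EtOH. Its H2BK120ac was 0.855 in TT, none in TD, 2.53 in ET and 4.52 in ED. The region near Gnpnat1, which encodes an enzyme of UDP-GlcNAc synthesis, at chr14:45444855-45445951, had H3K27ac of 10.1 in 4HT and 8.24 in EtOH. The region near Pla2g10, a secreted phospholipase gene, at chr16:13739112-13739311, had 6.01 in 4HT and 8.02 in EtOH. The region inside Pfdn1, the gene of a prefoldin subunit, had 8.76 in 4HT and 7.98 in EtOH. The region near Kat2b, which encodes a lysine acetyltransferase, at chr17:53561507-53562065, had 9.55 in 4HT and 7.45 in EtOH. The 5 regions were thus strongly marked by H3K27ac in both treatments, with the higher value in 4HT at all but that near Pla2g10.

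The ED/ET-high regions were distal. Of the 354, 350 (98.9%) lay over 1 kb from the centre of any of the 38087 deposited TSS windows, against 65.7% of TD/TT-high regions, 94.2% of those high in all 4 and 84.9% of all regions. Their median distance was 54.3 kb (range 0.102 to 807 kb), against 5.47 kb for TD/TT-high regions, 21.3 kb for those high in all 4 and 18.4 kb for all regions. Regions well covered in H3K27ac had a median distance of 9.11 kb. Over 100 kb lay 115 members (32.5%) and 12.7% of all regions. Only 85 members (24.0%) lay inside a protein-coding gene, against 66.7% of TD/TT-high regions, 25.2% of those high in all 4 and 52.6% of all regions. Their surroundings were poor in genes: 53 (15%) were over 500 kb from any protein-coding start, against 3.94% of all regions, and the median number of such starts within 500 kb was 4 against 10. The region over the C330004P14Rik promoter was counted as distal, since no deposited window centre lay within 1 kb of it.

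**Figure D2:**
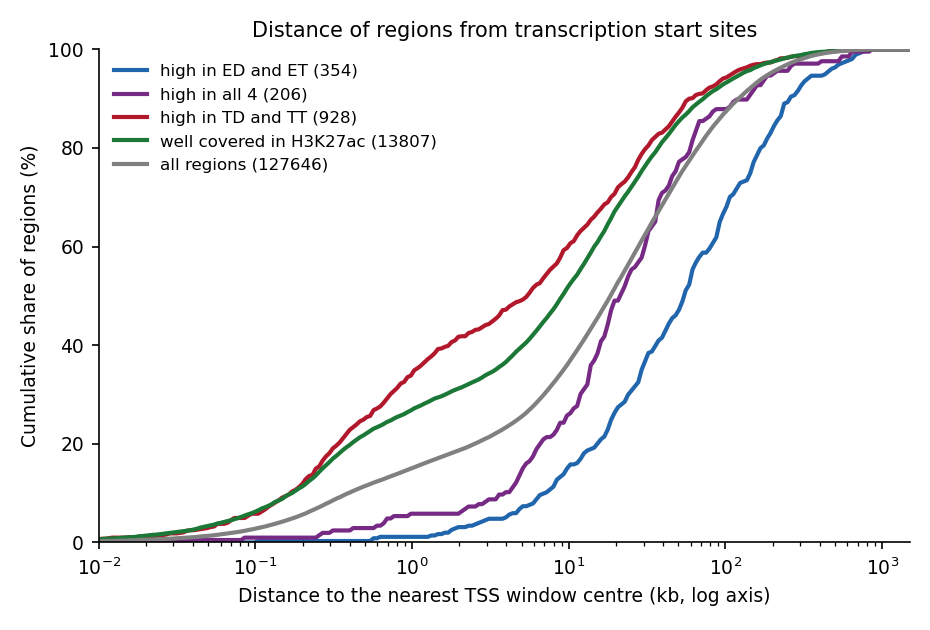
Cumulative share of regions (%) by distance to the centre of the nearest deposited TSS window (kb, log axis), for the ED/ET-high regions, the regions high in all 4 H2BK120ac columns, the TD/TT-high regions, the regions well covered in H3K27ac and all regions. The curve of the ED/ET-high regions lies farthest to the right, with a median of 54.3 kb against 18.4 kb for all regions.

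The 4 regions within 1 kb of a window centre were near Phax, BC053393, 2310009B15Rik and Gss. Only that of 2310009B15Rik, shown above, lay at the protein-coding gene's own start, 0.048 kb away. The region inside Gss, the glutathione synthetase gene, at chr2:155590264-155590564, had 0.664 in TT, 0.416 in TD, 3.44 in ET and 2.55 in ED, and H3K27ac of 5.06 in 4HT and 3.63 in EtOH. It was 2.40 kb from the start of Gss. The region near BC053393 was 10.2 kb and that near Phax, which encodes an adaptor of snRNA export, 341 kb from the start of the gene named.

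The distance of the ED/ET-high regions followed a gradient over all well-covered regions, which were chosen on H3K27ac alone. Going from within 1 kb of a TSS window centre to 1 to 10, 10 to 50, 50 to 100, 100 to 200 and over 200 kb, the mean H2BK120ac in TT was 1.54, 1.38, 1.33, 1.11, 1.05 and 1.01. In TD it was 1.66, 1.53, 1.48, 1.25, 1.24 and 1.27. In ET it was 0.797, 1.29, 1.57, 1.95, 2.24 and 2.86, and in ED 0.754, 1.17, 1.45, 1.72, 2.15 and 2.59. TT and TD were thus highest near start sites and ET and ED highest far from them. H3K27ac did not follow either course: its mean was 2.10, 2.63, 2.67, 2.57, 2.48 and 2.37 in 4HT and 1.61, 1.99, 2.03, 2.01, 1.98 and 1.89 in EtOH. The ratio of the means of TD and ED was 2.21 within 1 kb and 0.492 beyond 200 kb, and that of TT and ET was 1.93 and 0.355. Without the ED/ET-high regions the ratios beyond 200 kb were 0.592 for TD to ED and 0.429 for TT to ET, still below 1. The share of well-covered regions that were ED/ET-high was 0.107%, 1.30%, 2.12%, 4.74%, 8.61% and 13.7% over the same classes, which held 3721, 3472, 4576, 1096, 592 and 350 regions. The share of TD/TT-high regions was 5.56% within 1 kb and 0 beyond 200 kb. IgG coverage of these regions was not analysed here, and its part in this gradient was not tested.

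**Figure D3:**
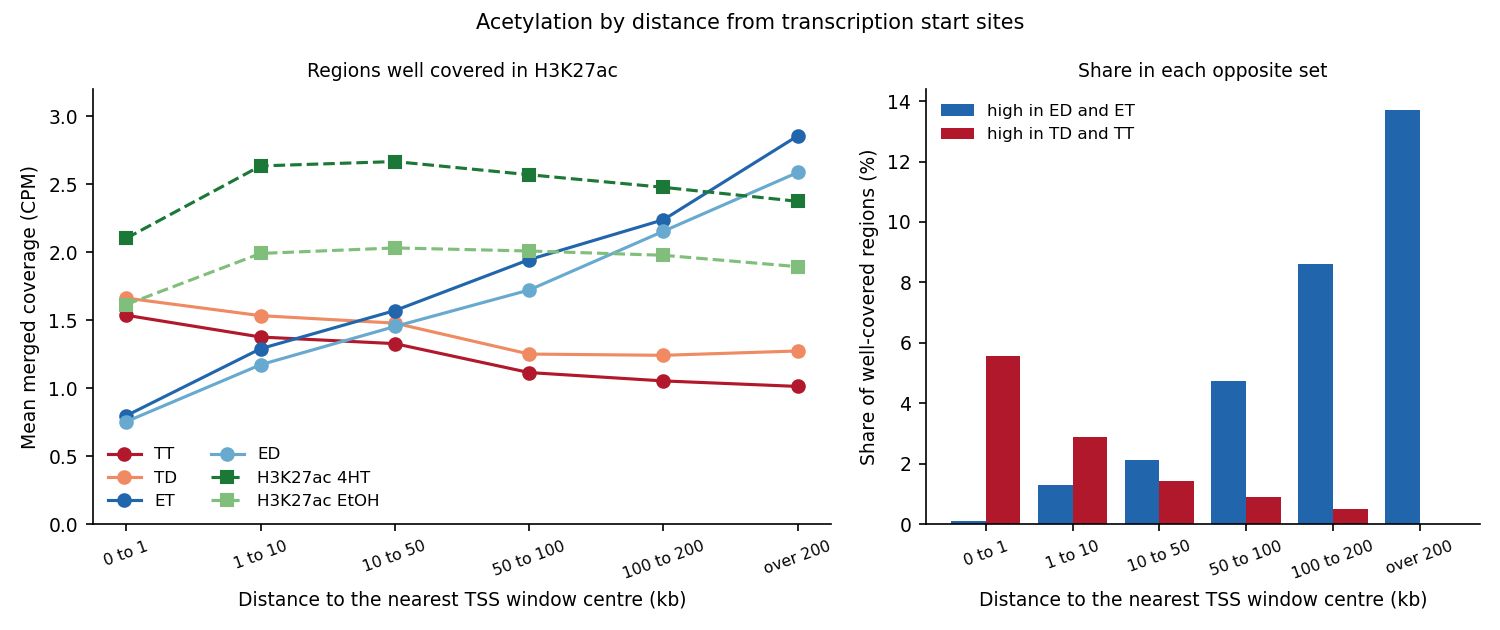
Left, mean merged coverage (CPM) of the regions well covered in H3K27ac by distance to the nearest TSS window centre, for H2BK120ac in TT, TD, ET and ED (circles) and H3K27ac in 4HT and EtOH cells (squares). Right, the share of the same regions that were ED/ET-high or TD/TT-high. ET and ED climb to 2.86 and 2.59 beyond 200 kb while TT and TD lie at 1.01 and 1.27 there, and the ED/ET-high share reaches 13.7%.

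Since all 4 columns chose the set, each pair was also read in regions chosen on the other pair. This is a description as well, since the regions so chosen include the 354 members. The shares of all regions with coverage, given beside, are not matched for the amount of coverage. Over all regions the median was 0.445 in both ET and ED. At least 2.5 in ED and less than 1 in TD held for 843 regions. In these the median was 0.517 in TT and 2.67 in ET. TT was below ET in 824 (97.7%) and at least 2-fold lower in 686 (81.4%), against 29.9% of all regions with coverage, and it was at least 2-fold higher in 1, against 19.7%. Chosen the other way, on ET and TT, 1084 regions had a median of 0.621 in TD and 2.37 in ED. TD was at least 2-fold lower in 751 (69.3%), against 29.4% of all regions with coverage, and at least 2-fold higher in 11, against 20.4%. Fewer regions also met the limits themselves in the pair that took no part, 42.0% of the 843 and 32.7% of the 1084, and these are the 354 members. Of the 1822 regions with at least 2.5 in ED, whatever TD, 60.4% were at least 2-fold lower in TT than in ET. Of the 2221 regions with at least 2.5 in ET, whatever TT, 48.9% were at least 2-fold lower in TD than in ED.

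Regions beside the ED/ET-high regions that were not among them also had more H2BK120ac in ET and ED. This is a description, since they were read in the same 4 columns that chose the members. Of the 353 within 5 kb of a member, 224 lay within 2 kb. Signal shared with the member was not separated from their own. The 353 others within 5 kb of a member had a mean of 0.618 in TT, 0.629 in TD, 2.16 in ET and 1.89 in ED. Their H3K27ac mean was 2.02 in 4HT and 1.51 in EtOH. TT was at least 2-fold lower than ET in 66.9% of them, against 22.2% of all regions outside the set, and TD than ED in 61.5%, against 21.8%. The shares outside the set include regions without coverage. They are not matched for H3K27ac, which had means of 0.471 in 4HT and 0.404 in EtOH there. The difference faded with distance. From 5 to 25 kb, 907 regions had a mean of 0.415 in TT, 0.472 in TD, 0.863 in ET and 0.801 in ED. From 25 to 100 kb, 2425 regions had 0.367 in TT, 0.373 in TD, 0.531 in ET and 0.495 in ED, and TT was at least 2-fold lower than ET in 29.4%. From 100 to 500 kb, 10305 regions had 0.363 in TT, 0.384 in TD, 0.467 in ET and 0.450 in ED, near the means of 0.417, 0.435, 0.441 and 0.420 over all regions outside the set. H3K27ac fell over the same distances. Its mean at 5 to 25, 25 to 100 and 100 to 500 kb was 0.801, 0.489 and 0.467 in 4HT. In EtOH it was 0.660, 0.426 and 0.399.

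**Figure D4:**
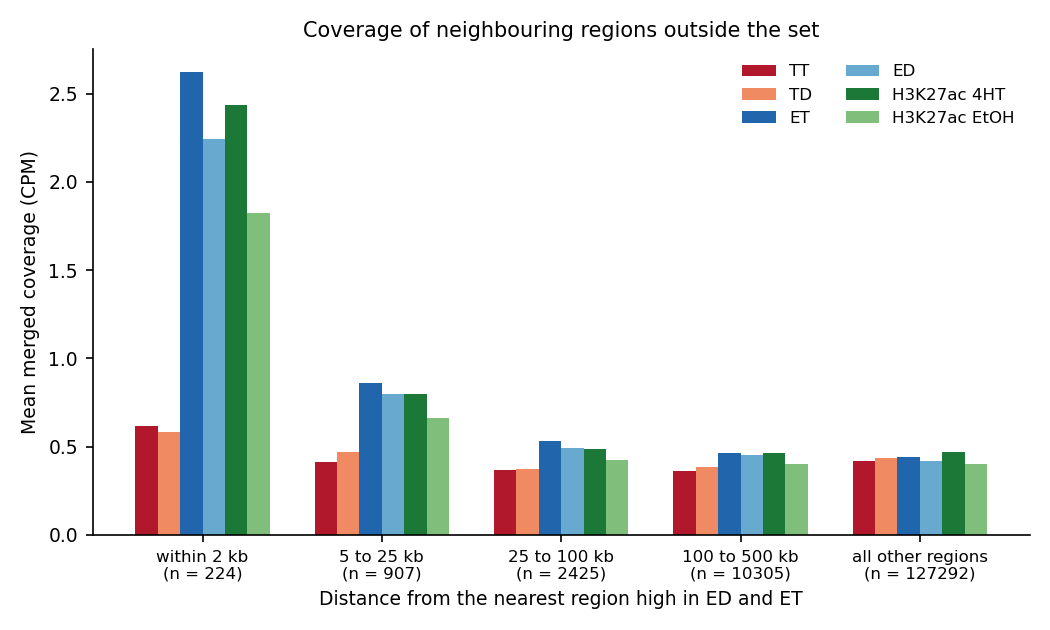
Mean merged coverage (CPM) of regions outside the ED/ET-high set by their distance from the nearest ED/ET-high region, for H2BK120ac in TT, TD, ET and ED and H3K27ac in 4HT and EtOH cells; n is the number of regions. Within 2 kb the means are 0.615 in TT, 0.584 in TD, 2.62 in ET and 2.24 in ED, and from 100 to 500 kb they are 0.363, 0.384, 0.467 and 0.450.

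The ED/ET-high regions were spread over the genome. Joined within 5 kb they formed 318 loci, of which 284 held a single region and 34 held 2 or more, 70 regions in all. They lay on 20 chromosomes, with 30 each on chromosomes 1 and 8. Per 1000 regions chromosome 14 had 4.96, chromosome 9 had 4.25 and chromosome 13 had 4.17. The lowest were the X chromosome, with 1 member (0.282% of members against 2.49% of regions), and chromosome 7, with 5 (1.41% against 5.90%). The densest loci held 3 members. At Slc38a11 they spanned chr2:65436453-65437675, with ET of 3.81, 10.1 and 10.4 and ED of 3.73, 4.38 and 2.59 in the order of position. The last had a ratio of ET to ED of 4.00 and the middle one 2.30. At 2310009B15Rik the 3 regions spanned chr1:138856709-138859884. The gene nearest to the most members was Ghitm, which encodes a protein of the inner mitochondrial membrane, with 5 regions 386 to 1155 kb from its start, so that the name marks the place alone.

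The nearest protein-coding genes were 284 of 21490 with a known start, or 1.32%. Of 55 long neuronal adhesion and synapse genes, 12 were nearest to a member, and 23 of their 2065 regions were ED/ET-high, 11.1 per 1000 against 2.77 per 1000 over all genes. These genes lie in large gene-poor stretches. Of their 138 distal well-covered regions 17 (12.3%) were members, against 2.91% over all genes. The 2.91% is not matched for distance. Over all well-covered regions the share was 8.61% at 100 to 200 kb from a TSS window centre and 13.7% beyond 200 kb. Whether the list differs from other regions at like distance was not tested. The 23 regions lay 9.73 to 2234 kb from the start of the gene named, so a name does not tie a region to its gene. A region near Cdh8, a cadherin gene, at chr8:98625485-98625928, lay 791 kb from the start of Cdh8. It had 0.463 in TT, 0.661 in TD, 5.84 in ET and 7.47 in ED. A region near Magi2, which encodes a synaptic scaffold, at chr5:19102825-19102969, lay 124 kb from the start of Magi2. It had none in TT or TD, 6.53 in ET and 5.45 in ED. The 4 regions near Cdh9, another cadherin gene, had ET of 3.67, 3.85, 3.45 and 5.17 and ED of 2.63, 5.37, 6.39 and 4.47 in the order of position. In the same order they lay 1252, 99.4, 186 and 247 kb from the start of Cdh9. Other genes of the list nearest to a member were Cdh12, the contactin genes Cntn3 and Cntn5, Cntnap2, Dpp10, Gpc5, Kcnip4, Pcdh9 and Tenm3. Members also lay inside Csmd1, Dpp6, Grm7 and Gpc6 of the list. They were nearer to the start of another gene and are not in the counts above. H3K27ac differed among the regions of the list. It was 3.69 in 4HT and 1.93 in EtOH near Cdh8, and 4.58 in 4HT and 2.87 in EtOH near Magi2. At a region inside Kcnip4, the gene of a potassium channel-interacting protein, it was 0.207 in 4HT, the value of 1 fragment, and 0.321 in EtOH.

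Of 26 naive and general pluripotency genes, 3 were nearest to a member. ED/ET-high were 3 of their 483 regions, 6.21 per 1000 against 2.77 per 1000 over all genes. Of their distal well-covered regions 2.19% were members, against 2.91% over all genes. Besides Klf2, described above, the genes nearest to a member were Prdm14 and Tet2. The region near Prdm14, a repressor that maintains naive pluripotency, at chr1:13084639-13085602, had 0.367 in TT, 0.747 in TD, 3.32 in ET and 3.10 in ED, and H3K27ac of 5.42 in 4HT and 4.34 in EtOH. The region inside Tet2, the gene of a 5-methylcytosine dioxygenase, at chr3:133526311-133526423, had 0.888 in TT, 0.903 in TD, 2.54 in ET and 2.64 in ED. At Tet2 all 4 values were close to a limit. Of 13 formative and primed genes, 1 was nearest to members, Cdh2, the gene of N-cadherin, with 2 regions at 610 and 756 kb. The p53 targets had members at 0 of 14 genes and the two-cell stage genes at 0 of 20. These genes had only 115 and 30 regions. Over all genes 2.77 per 1000 regions were members, so nothing is read from these zeros.

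Among gene families, 8 of 278 regions nearest to vomeronasal receptor genes (Vmn1r and Vmn2r, the pheromone receptors) were ED/ET-high, 28.8 per 1000, each near a different gene. They were 21.1% of the family's 38 distal well-covered regions, against 2.91% over all genes, a share not matched for distance. They had ET of 2.58 to 5.02 and ED of 2.57 to 4.92, and H3K27ac of 2.14 to 5.13 in 4HT and 1.70 to 5.55 in EtOH. The region near Vmn2r90, at chr17:17738613-17739066, was the richest in H3K27ac, with 5.13 in 4HT and 5.55 in EtOH. Olfactory receptor genes (Olfr) had 3 of 699 regions, Zfp genes 9 of 2141, Slc genes 9 of 2654, genes of the Rik form 15 of 2037, Gm genes 9 of 2817, Prl genes 2 of 27 and Defb genes 1 of 66. Serpin, Cyp, Mup and Krt genes had 0 of 166, 305, 24 and 103 regions. The share over all genes was 2.77 per 1000, so nothing is read from these zeros. Near-identical family members can share reads, so values near receptor families are uncertain where the authors' alignment could split them.

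At the promoters of the nearest genes the 4 columns lay closer together. Of the 284 genes, 202 had a region within 1 kb of the start that was not itself ED/ET-high. These had a mean of 0.874 in TT, 0.873 in TD, 0.692 in ET and 0.658 in ED. TD was at least 2-fold lower than ED at 36 (17.8%), against 11.8% over all genes, and at least 2-fold higher at 27 (13.4%), against 21.7%. TT was at least 2-fold lower than ET at 26 (12.9%), against 10.5%, and at least 2-fold higher at 29 (14.4%), against 21.1%. Of the nearest genes, 155 lay within 100 kb of a member, and 104 promoter regions were read for them. TD was at least 2-fold lower than ED at 13 (12.5%) of these and higher at 18 (17.3%). TT was at least 2-fold lower than ET at 14 (13.5%) and higher at 20 (19.2%). These shares are mostly closer to those over all genes.

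H3K27ac of 4HT against EtOH cells addressed FOXD3 depletion at these regions. On the log2(value + 0.2) scale, on which folds of low regions come out too small, the members' median was 0.29 (range -1.11 to 2.15), beside 0.33 over all well-covered regions and 0.12 over all regions with coverage. At least 2-fold higher in 4HT were 26 members (7.34%), against 7.68% of well-covered regions and 13.3% of regions with coverage. At least 2-fold lower were 3 (0.847%), against 0.739% and 7.83%. The shares are thus close to those of well-covered regions in general. After quantile normalisation, which gives both columns 1 distribution, 9 members were higher and 7 lower. Other regions were not counted after this normalisation. 4HT was above EtOH in 73.2% of members and in 76.4% of well-covered regions. The counting interval of the ratio lay above 1 in 18 members and below 1 in 0. It was computed for members only, so these counts have no share over other regions beside them. The largest fold was near Isl1, which encodes a LIM homeodomain factor, at chr13:116071481-116071721, with 1.42 in 4HT and 0.165 in EtOH, the value of 1 fragment (ratio 8.63, interval 1.13 to 397). Near 2310009B15Rik, at chr1:138859753-138859884, the values were 4.21 in 4HT and 0.966 in EtOH (ratio 4.36, 1.63 to 12.8). Near Pclo, the gene of a presynaptic scaffold, at chr5:14318678-14318910, they were 3.05 in 4HT and 0.856 in EtOH (ratio 3.57, 1.31 to 13.3). Near Mms22l, a gene of replication fork repair, the interval of the ratio reached below 1 (3.94, 0.840 to 43.5), and near Cryz, a quinone reductase gene, it did not (3.25, 1.15 to 9.91). The region inside Tet2 had 6.96 in 4HT and 3.01 in EtOH (ratio 2.31, 1.31 to 4.48). That near Klf2 had a ratio of 1.38 (0.932 to 2.05) and that near Prdm14 of 1.25 (0.703 to 2.26), both with intervals that include 1.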

How the data were processed

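CUT&Tag coverage of H2BK120ac (TT, TD, ET and ED) and H3K27ac (4HT and EtOH) was analysed in 127646 regions. The deposited values are coverage signal, named CPM in the deposited tables, with the replicates of a group merged by the authors into 1 column. The build is mm10, per the submitters' processing notes. The aligner, coverage tool and origin of the regions: not given in the sources used here. In H3K27ac no value is 0 or below the commonest value, so means appear to be taken over covered bases only and sparse regions come out too high. H2BK120ac values reach down to 0.25 of the commonest value, and how these arose is not known. A missing value was taken as 0. Another 2 tables hold 8 value columns apiece, 16 in all, that match no sample in the labels and were not used. From those tables the positions of 38087 windows of 5 kb around TSS were taken.

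Regions were selected and compared with Python 3.11.15, numpy 2.4.6, pandas 2.3.3 and scipy 1.17.1; figures were drawn with matplotlib 3.10.9. Folds are on log2(value + pseudocount), 0.4 for H2BK120ac and 0.2 for H3K27ac, and regions with coverage have it in at least 1 of the columns compared. Regions carry the name of the nearest protein-coding TSS (RefSeq, GRCm38.p6), known for 21490 of 21900 genes: 17492 from promoter windows and 3998 from gene ends within 5 kb of a TSS window. Coordinates are 1-based. Named are the 10 members highest in ED and ET (2 of which are not reported here), the 5 highest in H3K27ac EtOH, the 5 with the largest H3K27ac fold, those within 1 kb of a TSS window, 3 on either side of the limits, the densest loci and members near listed genes; the 2 members over promoters, the gene with the most members and receptor genes were named after their values were seen. The members, lists and rules were chosen with earlier results of these data known. The selection was run on simulated whole-fragment counts with planted regions well inside the limits. Regions near a limit were not tested in this way. Limits, scaling, missing values, pseudocounts and distances were varied.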

Additional observations from a re-analysis of the deposited data

How the results depend on the processing

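The 354 regions depend on the limits and on merged columns with no replicate spread. With an upper limit of 2 there were 684, with 3 there were 204, with a lower limit of 0.5 there were 113 and with 1.5 there were 568. Leaving out regions with a missing value gave 282, quantile normalisation 494 and median scaling 303. The distal share was 96.3% beyond 2.5 kb, 84.2% beyond 10 kb and 100% with the lower limit of 0.5. The median TSS distance was 41.0 kb with an upper limit of 2 and 63.4 kb with a lower limit of 0.5. The median H3K27ac in 4HT was 1.94, 2.58, 1.58, 2.49 and 2.10, and in EtOH 1.55, 2.08, 1.26, 2.07 and 1.59, with an upper limit of 2, of 3, a lower limit of 0.5, of 1.5, and quantile normalisation.

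At least 2-fold higher in 4HT were 11 members with a pseudocount of 0.5 and 9 after quantile normalisation, and 0 and 7 were lower. Other regions were not counted at these settings. The ratio of TT and TD to ET and ED in neighbouring regions was 0.308 within 5 kb, 0.247 within 2 kb, 0.533 from 5 to 25 kb and 0.256 after quantile normalisation. Choosing regions on ET and TT gave 69.3% at least 2-fold lower, on ED alone 60.4% and on ET alone 48.9%, against 81.4% as reported. Taken as medians, the ratio of TD to ED was 1.76 within 1 kb and 0.300 beyond 200 kb, and that of TT to ET 1.65 and 0.247. After quantile normalisation TD to ED was 1.93 and 0.342, and TT to ET beyond 200 kb was 0.287. Without the members the ratios beyond 200 kb were 0.592 for TD to ED and 0.429 for TT to ET. Of 74 alternatives, the 37 given above moved a count past 1.5 times, a ratio by over 10%, or a share or median out of its 95% counting interval. Some of the others could not move. Every member had H3K27ac coverage, so dropping the coverage filter or missing H3K27ac values left the H3K27ac results as they were. A turn of direction was looked for only in the ratios of neighbouring regions and of distance classes, and none was found. Counts, shares and medians could only stay or move. The cause of the changes was not tested. Medians, choices on other columns and scaling of the ratios, and the ratios without the members, were added after the data were seen. No paired analysis was possible because each group has 1 merged column, and leaving out a replicate could not be run for the same reason; the planned IgG medians were not run.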
